A study of Mus musculus with 12 samples.

Results

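The Reg genes encode small secreted proteins built around a C-type lectin domain. The 5 described here are Reg1, Reg3a, Reg3b, Reg3g and Reg4, taken by gene symbol from a table of 28793 genes in 12 RNA sequencing libraries from mouse large intestine. In the intestinal epithelium, Reg3b and Reg3g are known for binding and killing or restraining bacteria near the mucosal surface, and they are induced by microbes and by the cytokine IL-22, whose receptor signals through the transcription factor STAT3. Reg1 is best known from the exocrine pancreas and from regenerating gastrointestinal epithelium. Reg4 marks deep crypt secretory cells, the colonic cells that sit between stem cells at the crypt base. The other mouse genes of the family in the table, Reg2 and Reg3d, are given for comparison.

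All mice were of the C57BL/6 background, were 3 months old and carried altered alleles of Tert, which encodes the reverse transcriptase subunit of telomerase. The heterozygous controls (mTert_HET) therefore also carry a changed allele, and no wild-type library was compared. GFP-sorted crypt base cells, labelled stem/progenitor cells, gave 3 heterozygous libraries and 3 Tert-null libraries of generation 3 (null G3). Unsorted crypt epithelium gave 2 heterozygous libraries, 2 Tert-null libraries of generation 4 (null G4) and 2 generation 4 libraries labelled reactivated, whose descriptions carry the tag "tam". Each library is labelled a biological replicate, and the labels name neither the GFP reporter nor the animal behind a library. The p-values below set differences between groups against the spread between these libraries.

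Expression is given as RPKM, reads per kilobase of gene, scaled to the library's total. Tert stood at 0.459 and 0.251 RPKM in the unsorted heterozygous libraries, at 0.00778 and 0.0377 in null G4 and at 0.0171 and 0.0311 in the libraries labelled reactivated, which lie inside the null range and are called by their label throughout. In sorted cells Tert read 0.0424, 0.0583 and 0.169 RPKM in heterozygous libraries and 0, 0.0787 and 0.00131 in null G3, so the groups overlapped. Ddx3y, a Y-linked gene, was above 1 RPKM in both unsorted heterozygous libraries, in neither null G4 library and in the labelled-reactivated replicate 2, so sex and genotype cannot be told apart in null G4 against heterozygous crypts. Null G3 sorted replicate 1 stood apart: 10 small intestinal enterocyte markers summed to 6741 RPKM there, against 92.7 to 141.9 in the other 5 sorted libraries, and the stem cell marker Lgr5 stood at 0.121 RPKM against 3.40 to 4.74. The 6 epithelial markers summed to between 500.1 and 3125 RPKM in every library, while the 8 immune markers summed to at most 5.73 and the 6 stromal markers to at most 3.83. The low values imply a depth of about 74800000 to 102600000 reads in the unsorted libraries.

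Reg3b, Reg3a, Reg1 and Reg3g lie in 1 cluster of 6 Reg genes on chromosome 6 with Reg2 and Reg3d (mm10, chr6:78370657-78468872, a span of 98.2 kb), whereas Reg4 lies alone on chromosome 3 (chr3:98222156-98236748, plus strand). Reg3b (chr6:78370657-78373466) is on the plus strand at the proximal end and Reg3g (chr6:78466269-78468872) on the minus strand at the distal end. Between them are Reg3a (chr6:78380709-78383827) and Reg1 (chr6:78422711-78428667), both on the plus strand. The protein-coding transcripts of Reg3b and Reg3g are identical at 74.7% of 739 aligned bases with a longest shared run of 35, and those of Reg3a and Reg3b at 75.9% with a longest run of 24. Reads from shared stretches could be split between these genes, and how the counting treated such reads is not given in the sources used here.

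Reg3b and Reg3g were the members that moved together in unsorted crypts, so the 150 bases before their RefSeq starts are shown, followed by those of Reg4, whose values ran the other way (GRCm38.p6, from RefSeq, each read on its gene's strand). Capitals mark 2 motifs: the STAT motif, TTCNNNGAA, which reads the same on both strands, and the TATA box, TATAAA. The Reg3b window is chr6:78370735-78370884 on the plus strand, that of Reg3g is chr6:78468875-78469024 on the minus strand and that of Reg4 is chr3:98222006-98222155 on the plus strand.
Reg3b: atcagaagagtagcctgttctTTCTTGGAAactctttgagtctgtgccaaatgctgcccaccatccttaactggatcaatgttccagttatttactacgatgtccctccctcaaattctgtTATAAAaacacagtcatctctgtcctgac
Reg3g: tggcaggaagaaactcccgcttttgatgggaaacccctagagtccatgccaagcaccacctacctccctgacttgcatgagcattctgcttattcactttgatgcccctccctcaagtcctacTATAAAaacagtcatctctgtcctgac
Reg4: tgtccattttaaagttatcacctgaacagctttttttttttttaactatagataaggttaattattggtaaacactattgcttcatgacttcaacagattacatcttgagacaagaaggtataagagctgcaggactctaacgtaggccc
The Reg3b and Reg3g windows are identical at 104 of 148 aligned bases (70.3%). Reg3b holds the STAT motif with its first base at position -129 from the start and a TATA box at -29, and Reg3g holds a TATA box at -27. In the full window searched, 250 bases before to 50 after the start on both strands, these letters of the STAT motif were not found for Reg3g, Reg1, Reg3a or Reg4, and neither motif was found for Reg3a or Reg4. Of the genes given for comparison, Reg3d held the STAT motif at -238 and Reg2 did not. Reg3g also held the letters of the TATA box on the opposite strand, at -161. Of 32851 RefSeq promoters of the same length, 8.30% hold the STAT motif and 8.32% a TATA box on the gene's strand. The 2 motifs do not overlap in the Reg3b window.

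Reg3b was the most abundant Reg transcript in 10 of the 12 libraries, and the 2 exceptions were the unsorted heterozygous ones. Unsorted heterozygous crypts had 15.7 and 58.5 RPKM of Reg3b, null G4 crypts 1941 and 2228, and the libraries labelled reactivated 1113 and 451.6. Sorted heterozygous cells read 548.1, 977.5 and 541.4 RPKM and sorted null G3 cells 1289, 1009.5 and 271.3. The unsorted heterozygous libraries were thus the low ones, and among unsorted libraries the 3 groups did not overlap. Ranked among all genes listed in its library, Reg3b was 1349th and 314th in unsorted heterozygous crypts, 11th and 9th in null G4, and 14th and 39th in the libraries labelled reactivated. In sorted cells its rank ran from 12 to 37.

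**Figure D1:**
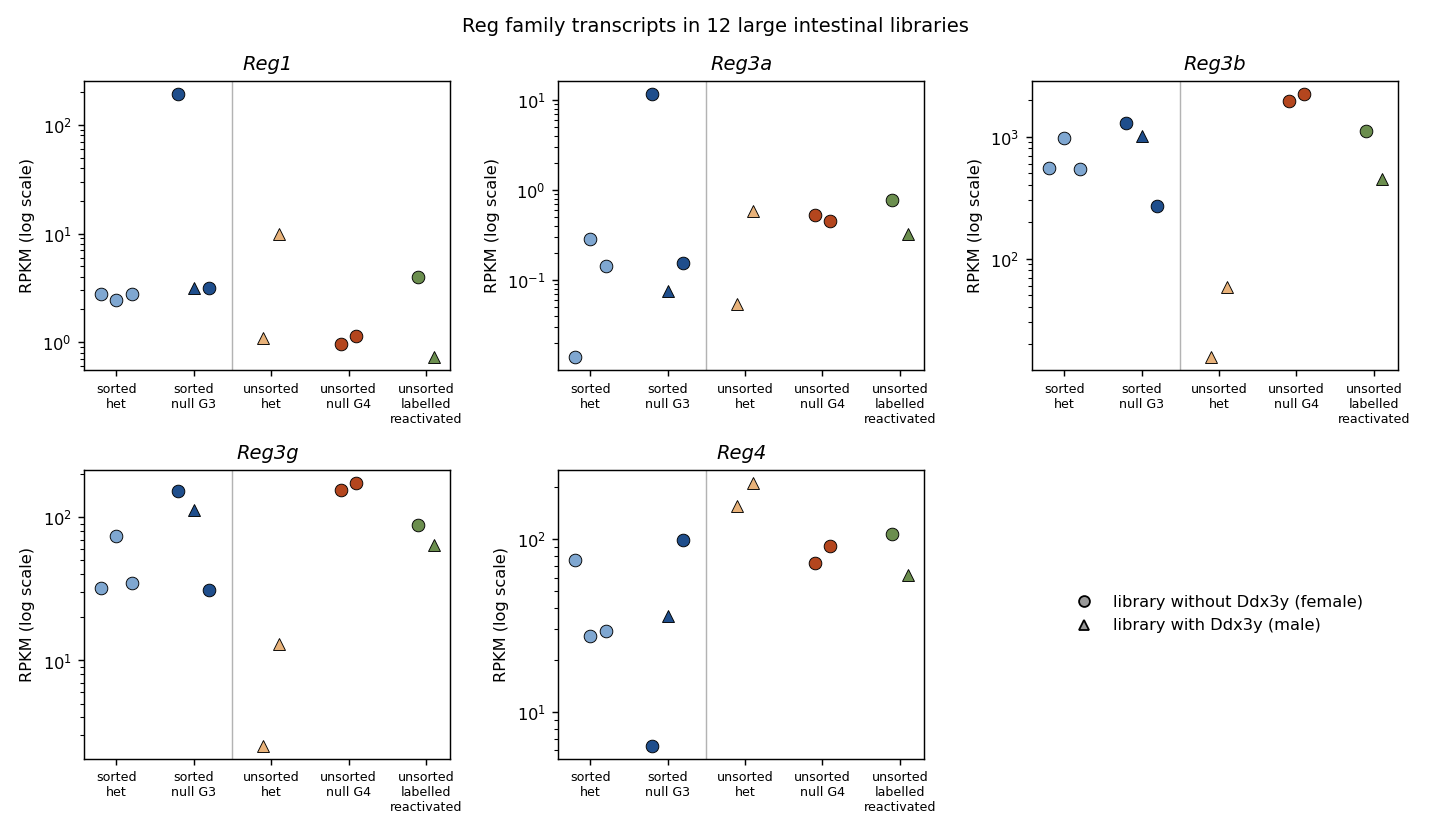
Expression of the 5 Reg genes in each of the 12 libraries, in RPKM on a log axis, by group; each point is 1 library, and triangles mark libraries with Ddx3y (male). Reg3b and Reg3g are low in the 2 unsorted heterozygous libraries (15.7 and 58.5 RPKM for Reg3b) and higher in all other groups, whereas Reg4 is highest in those same 2 libraries.

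Reg3g, known for its action on Gram-positive bacteria, followed the same order at lower values. Its unsorted values were 2.55 and 13.0 RPKM for the heterozygous libraries, 155.1 and 174.2 in null G4, and 88.2 and 64.6 in the libraries labelled reactivated. In sorted cells it read 32.1, 73.8 and 34.9 RPKM in the heterozygous libraries and 151.8, 112.6 and 30.9 in null G3 libraries. Again the unsorted groups did not overlap and the sorted groups did. How far Reg3g lies under Reg3b depends on the gene lengths behind the RPKM: the exons of Reg3g cover 2114 bases when an intron-retaining transcript is included, whereas its coding transcript has 771, close to the 783 of Reg3b. The length the authors used is not given in the sources used here.

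Reg4 showed the reverse order in unsorted crypts. It stood at 156.6 and 212.2 RPKM in heterozygous crypts, 73.2 and 90.9 in null G4, and 107.8 and 61.8 in the libraries labelled reactivated. Both heterozygous libraries were above all 4 others. In sorted cells Reg4 read 76.2, 27.6 and 29.2 RPKM in the heterozygous libraries and 6.38, 35.7 and 99.1 in null G3 libraries, which overlapped, with the lowest value in null G3 replicate 1.

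Reg1 was low in most libraries and high in 1. Its sorted values were 2.75, 2.43 and 2.78 RPKM in heterozygous cells and 191.6, 3.18 and 3.14 in null G3 cells. In unsorted crypts it stood at 1.08 and 9.84 RPKM in heterozygous crypts, 0.956 and 1.13 in null G4, and 3.94 and 0.733 in the libraries labelled reactivated. The high sorted value came from the library that stood apart, and heterozygous replicate 2 was the highest among unsorted crypts.

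Reg3a, another member of the Reg3 subfamily, was near the limit of detection. It read 0.0140, 0.289 and 0.142 RPKM in sorted heterozygous cells, 11.7, 0.0763 and 0.157 in null G3 cells, and between 0.0546 and 0.773 in unsorted crypts, which corresponds to about 4 to 65 reads. Reg3a did not reach 1 RPKM in enough libraries to enter any test. Reg2 stayed at or under 0.0236 RPKM in every library. Reg3d was listed at 0 in both unsorted heterozygous libraries, at 0.513 and 0.434 RPKM in null G4, and at 0.288 and 0.0249 in the libraries labelled reactivated, and it too was untested.

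The make-up of the family's RNA therefore differed between unsorted groups. Of the summed RPKM of the 5 genes plus Reg2 and Reg3d, Reg4 made up 89.0% and 72.2% in heterozygous crypts, 3.37% and 3.64% in null G4, and 8.20% and 10.7% in the libraries labelled reactivated. Reg3b made up 8.91% and 19.9% in heterozygous crypts, 89.4% and 89.3% in null G4, and 84.7% and 78.0% in the libraries labelled reactivated. In sorted libraries of both genotypes Reg3b held 67.1% to 90.4%, so the sorted heterozygous cells differed in this from the unsorted heterozygous crypts. The sorted and unsorted sets appear to have been normalized separately, and this contrast was not tested.

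Reg3b and Reg3g rose in null G4 against heterozygous unsorted crypts, and Reg1 and Reg4 did not pass the test. On the log2(RPKM + 1) scale Reg3b was higher by 6.05 (SE 0.60, limma with Benjamini-Hochberg adjustment, adjusted p = 0.00154), a 66.0-fold difference, and had the highest log2 difference of the 11464 genes tested. Reg3g was higher by 4.55 (SE 0.53, limma adjusted p = 0.00353), or 23.5-fold, the 7th highest. For each gene both null libraries lay above both heterozygous ones. Among all genes tested 4.97% rose and 0.576% fell, with a median log2 difference of 0.36, and the null libraries lay wholly above the heterozygous ones for 74.7% of genes. This general shift moved with the share of summed RPKM taken by mitochondrial ribosomal RNA, 19.2% and 27.3% in heterozygous against 12.01% and 11.93% in null G4 libraries, and its part was not tested. After scaling to a common median 134 genes rose and 106 fell, where the values as deposited gave 570 and 66, and Reg3b and Reg3g still passed. Reg3b and Reg3g were above 2 RPKM in every unsorted library, so neither passed the filter on low values through its high group alone. In these bulk libraries, a change in the number of cells of a type and a change in RNA per cell cannot be told apart.

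Reg4 was lower by 1.15 on the log2 scale in null G4 (log2 difference -1.15, SE 0.32), with an adjusted p from limma of 0.0572 that missed the threshold. The groups did not overlap in this direction, as for 6.5% of the genes tested. When libraries were scaled to a common median, which removes the general shift, the log2 difference was -1.58 (limma adjusted p = 0.0329). Reg1 differed by -1.22 (SE 0.70, limma adjusted p = 0.194), a value that rests on heterozygous replicate 2: without it the log2 difference was -0.031, and without heterozygous replicate 1 it was -2.41 (limma adjusted p = 0.0106).

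**Figure D2:**
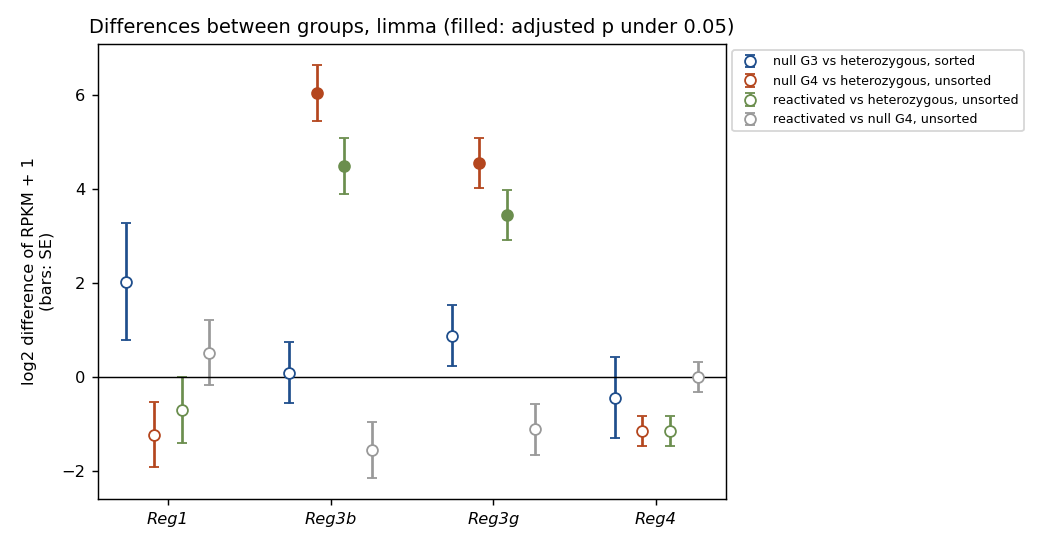
Log2 differences of Reg1, Reg3b, Reg3g and Reg4 with their standard errors in the 3 unsorted comparisons and the sorted one, on the log2(RPKM + 1) scale; filled symbols passed an adjusted p of 0.05. Reg3b and Reg3g rose in null G4 and in the libraries labelled reactivated against heterozygous crypts (6.05 and 4.49 for Reg3b), and no sorted difference passed.

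The rise of Reg3b and Reg3g in null G4 coincided with sex, since the 2 heterozygous libraries were male and the 2 null libraries female. With a term for sex, which only the 2 libraries labelled reactivated inform, the log2 difference was 4.75 for Reg3b (limma adjusted p = 0.167) and 4.11 for Reg3g (limma adjusted p = 0.234). With no filter on low values, which raises the genes tested to 25639, both calls were also lost (limma adjusted p = 0.113 and 0.127). Within 1 sex the direction could be read from single libraries. The male library labelled reactivated had 28.8 and 7.72 times the Reg3b RPKM of the 2 male heterozygous libraries, and 25.4 and 4.98 times their Reg3g. Its Reg4 was 0.394 and 0.291 times theirs.

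The libraries labelled reactivated lay between the other 2 unsorted groups for Reg3b and Reg3g. Against heterozygous crypts Reg3b rose by 4.49 on the log2 scale (SE 0.60, limma adjusted p = 0.00958) and Reg3g by 3.44 (SE 0.53, limma adjusted p = 0.0204), where 1.13% of the 11464 genes rose and 0.148% fell. Both genes lay wholly above the heterozygous libraries, as did 46.7% of genes, and Reg4 wholly below, as did 4.42%. Both calls were lost without labelled-reactivated replicate 1, the female library, at log2 differences of 3.84 (limma adjusted p = 0.0905) and 3.22 (limma adjusted p = 0.155). They were also lost under median scaling, at 4.25 (limma adjusted p = 0.0545) and 3.23 (limma adjusted p = 0.102), where 74 genes rose and 22 fell. Reg4 differed by -1.15 (SE 0.32, limma adjusted p = 0.192) and Reg1 by -0.70 (SE 0.70, limma adjusted p = 0.540). This comparison and that of null G4 share the heterozygous libraries.

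Against null G4, no member passed in the libraries labelled reactivated. The log2 difference was -1.55 for Reg3b (SE 0.60, limma adjusted p = 0.833), -1.11 for Reg3g (SE 0.53, limma adjusted p = 0.833), 0.52 for Reg1 (SE 0.70, limma adjusted p = 0.839) and 0.00088 for Reg4 (SE 0.32, limma adjusted p = 0.999). Few genes passed at all in this comparison, 0.0174% higher and 0.00872% lower. The labelled-reactivated values lay wholly below null G4 for Reg3b and Reg3g, as for 25.5% of genes, and no member lay wholly above, as 4.58% of genes did. Among the female libraries alone, null G4 had 1.74 and 2.001 times the Reg3b of the library labelled reactivated.

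In sorted cells no Reg gene differed between null G3 and heterozygous libraries beyond its spread, and neither did any of the 8734 genes tested by limma (0% higher and 0% lower, 143 genes at an unadjusted p under 0.05). The log2 difference was 0.095 for Reg3b (SE 0.64, limma adjusted p = 0.911), 0.88 for Reg3g (SE 0.65, limma adjusted p = 0.481) and -0.43 for Reg4 (SE 0.87, limma adjusted p = 0.703), and that of Reg4 turned positive when libraries were scaled to a common median (0.23). Reg1 differed by 2.03 (SE 1.25, limma adjusted p = 0.481). Its null G3 libraries all lay above the heterozygous ones, as did 0.114% of genes, but without null G3 replicate 1 its log2 difference was 0.19.

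For Reg3b the difference between null and heterozygous libraries was unequal in the 2 sets: the log2 difference in unsorted crypts exceeded that in sorted cells by 5.95 (SE 1.04, limma adjusted p = 0.0471), where 0.303% of 11862 genes passed in this direction and the median was 0.73. The call held in 4 of the 12 fits that left out 1 library. It was lost without any 1 of the 3 sorted heterozygous, 2 unsorted heterozygous or 2 null G4 libraries, or without null G3 replicate 2, and over all alternatives the limma adjusted p ran from 0.00504 to 0.711. For Reg3g this difference was 3.67 (SE 1.01, limma adjusted p = 0.190), for Reg1 -3.25 (SE 1.93, limma adjusted p = 0.221) and for Reg4 -0.72 (SE 1.22, limma adjusted p = 0.640). The sets also differ in generation, G3 against G4, which cannot be told apart from sorting here. Sex fell unevenly too: 2 of 2 heterozygous and 0 of 2 null G4 unsorted libraries were male. In sorted cells 0 of 3 heterozygous and 1 of 3 null G3 libraries were male. The Reg3b call was also lost with a term for sex.

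The balance of Reg3b to Reg3g moved in opposite directions in the 2 sets, a measure chosen after its values were seen. The ratio itself depends on the gene lengths behind the RPKM, and its fold difference between libraries does not. The ratio of their RPKM was 17.1, 13.2 and 15.5 in sorted heterozygous cells and 8.50, 8.97 and 8.79 in null G3 cells. These groups did not overlap, and null G3 replicate 1 lay with the other 2. The log2 ratio differed by -0.80, or 1.74-fold (exact two-sided permutation test, p = 0.1, the smallest that 3 against 3 libraries allow). In unsorted crypts the ratio was 6.16 and 4.50 in heterozygous libraries, 12.5 and 12.8 in null G4, and 12.6 and 6.99 in the libraries labelled reactivated. Null G4 exceeded heterozygous crypts by 1.26 on the log2 scale (exact two-sided permutation test, p = 0.333, the smallest possible with 2 against 2). The unsorted ratios also split by sex, with the 3 female libraries at 12.5 to 12.8 and the 3 male ones at 4.50 to 6.99, so sex and genotype cannot be told apart in null G4 against heterozygous crypts for this ratio. In sorted cells the single male library, null G3 replicate 2, lay with its group at 8.97.

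**Figure D3:**
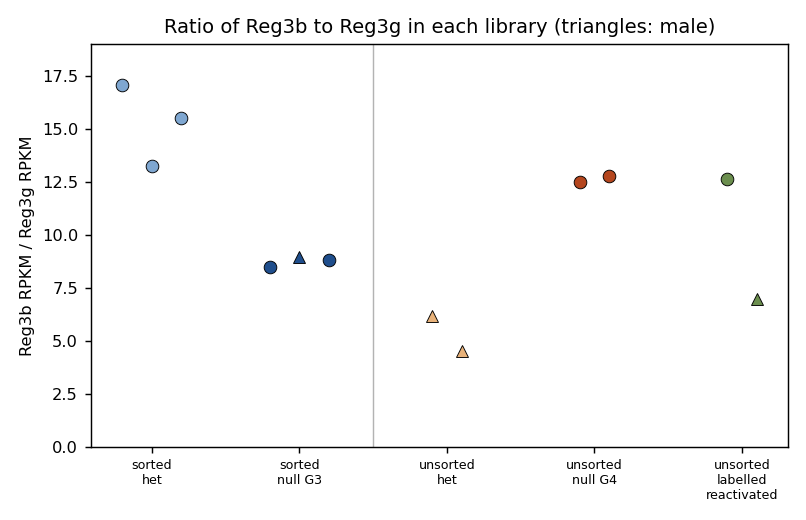
Ratio of Reg3b to Reg3g RPKM in each of the 12 libraries, by group; each point is 1 library and triangles are male. The 3 sorted null G3 libraries lie between 8.50 and 8.97, below the sorted heterozygous ones, and the unsorted heterozygous libraries are the lowest at 6.16 and 4.50.

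The route known to induce Reg3 genes was read from a list of 19 genes of IL-22, IL-6 and STAT3 signalling, from receptors to feedback. Of its 14 tested genes, 3 rose and 0 fell in null G4 against heterozygous crypts, with a median log2 difference of 0.53 against 0.36 over all genes, of which 4.97% rose. The count was 2 under quantile normalization or median scaling, 7 of 10 at the RPKM 5 filter, 9 in the fit of the 4 libraries compared and 0 of 18 with no filter on low values. Socs3, the feedback inhibitor that STAT3 induces, was at 1.39 and 1.09 RPKM in the 2 heterozygous libraries, 5.44 and 5.23 in null G4, and 4.12 and 3.86 in the libraries labelled reactivated. It rose by 1.503 (SE 0.14, limma adjusted p = 0.00132), a call that held with the sex term (1.43, limma adjusted p = 0.0419) and was lost with no filter on low values (limma adjusted p = 0.0676).

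Nfkbiz, an NF-kB cofactor, rose by 1.33 (limma adjusted p = 0.0144), and Stat3 rose by 0.85 (limma adjusted p = 0.0309). The Stat3 call was lost in 4 of 6 fits without 1 library and under median scaling (limma adjusted p = 0.0682), and with the sex term those of Nfkbiz and Stat3 were both lost (limma adjusted p = 0.263 and 0.283). Il22ra1, the IL-22 receptor chain of epithelial cells, differed by 0.57 (limma adjusted p = 0.0663). In the libraries labelled reactivated, Socs3 alone among the 14 rose against heterozygous (1.16, limma adjusted p = 0.00778), where 1.13% of all genes rose. The list median was 0.41 against 0.22 over all genes, and the count was 2 under median scaling and 0 with no filter on low values. None of the 12 list genes tested in sorted cells passed. The cytokine Il6 itself did not exceed 0.0347 RPKM in any library.

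Other antimicrobial and mucosal defence genes moved in both directions in null G4 against heterozygous crypts. Of 20 tested from a list of 25, 7 rose and 3 fell, against 4.97% and 0.576% of all genes, with a median log2 difference of 0.92 against 0.36. Under median scaling 4 rose and 3 fell, and with no filter on low values only Nos2 rose and only Ang4 fell among the 25 genes. Nos2, the inducible nitric oxide synthase, stood at 0.240 and 0.549 RPKM in the heterozygous libraries and 9.60 and 10.01 in those of null G4, and rose by 2.96 (SE 0.16, limma adjusted p = 5.5e-05). Pla2g2a, a secreted phospholipase that attacks bacterial membranes, rose by 2.14 (limma adjusted p = 0.00132), and Saa1, an acute phase protein, by 2.31 (limma adjusted p = 0.0304). The Saa1 call was lost in 1 of 6 fits without 1 library, under quantile normalization (1.81, limma adjusted p = 0.132) and under median scaling (1.88, limma adjusted p = 0.131). Lcn2, which binds bacterial siderophores and often rises in inflamed colon, stayed at or below 0.439 RPKM in every library.

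The 3 that fell included Ang4, an antibacterial ribonuclease made by secretory cells of the intestinal epithelium. It stood at 190.0 and 194.7 RPKM in heterozygous crypts, 6.04 and 5.09 in null G4, and 27.7 and 24.8 in the libraries labelled reactivated, with a null G4 log2 difference of -4.88 (SE 0.20, limma adjusted p = 4.4e-05). Mptx1, a pentraxin, differed by -3.13 (SE 0.28, limma adjusted p = 0.00104). With the sex term Nos2 and Saa1 rose and Ang4 and Mptx1 fell, and the call of Pla2g2a was lost (1.65, limma adjusted p = 0.0508). Against heterozygous crypts, 4 of the 20 rose and 3 fell in the libraries labelled reactivated, where 1.13% of all genes rose and 0.148% fell. Against null G4 only Ang4 passed among the 20 (log2 difference 2.05, limma adjusted p = 0.0181), where 0.0174% of all genes were higher. In sorted cells none of 17 passed.

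**Figure D4:**
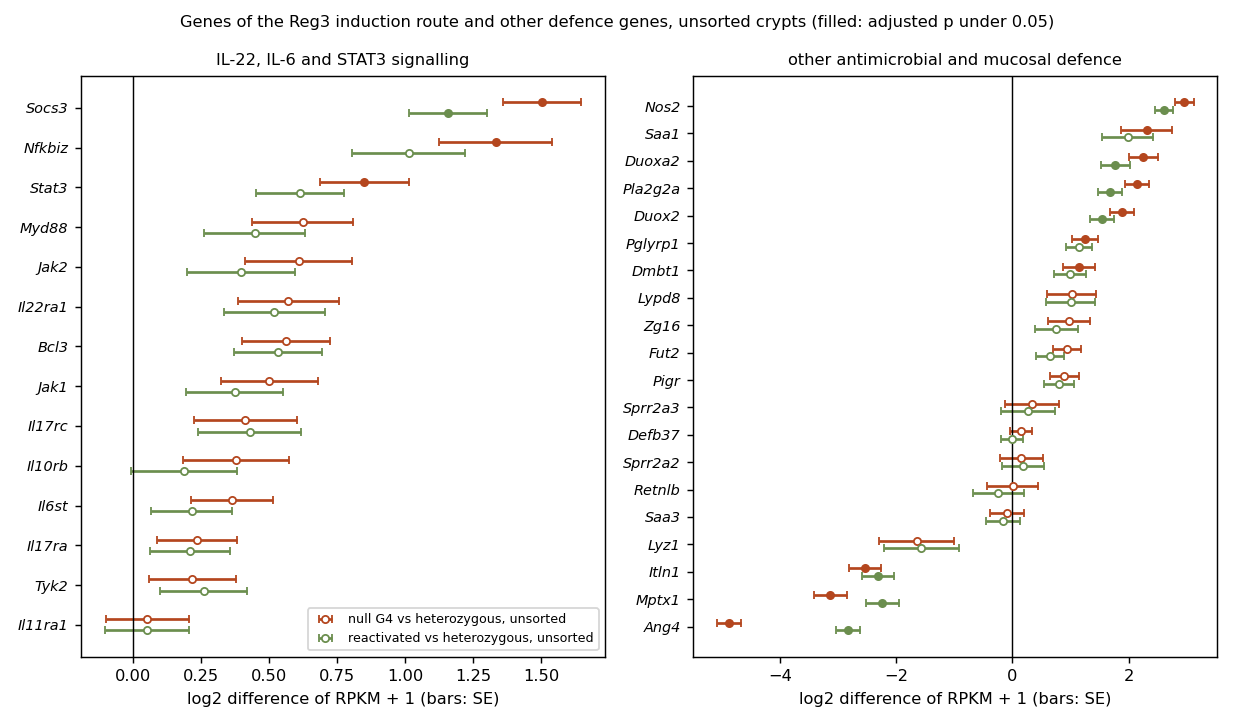
Log2 differences, with standard errors, of the tested genes of the signalling list (left) and the defence list (right) in null G4 and in the libraries labelled reactivated against heterozygous unsorted crypts, on the log2(RPKM + 1) scale; filled symbols passed an adjusted p of 0.05. In null G4, 3 of 14 signalling genes rose, and 7 of 20 defence genes rose and 3 fell, with Ang4 at -4.88.

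Markers of other cell types were set beside these changes, and their part in them was not tested. The 12 deep crypt secretory and goblet genes, which include Reg4, had a median log2 difference of -0.013 in null G4, against 0.36 over all genes. Of the 12, 0 were higher and 2 lower (Clca3 at -2.49 and Fcgbp at -1.17), against 4.97% and 0.576% of all genes. Muc2, the main goblet mucin, differed by -0.11. The 5 Paneth cell genes tested had a median log2 difference of -1.65, with 1 higher and 2 lower. The 9 small intestinal enterocyte genes tested had a median of -1.23, with 0 higher and 1 lower, against the same shares of all genes. Among unsorted libraries both of these lists summed highest in heterozygous replicate 2. Enteroendocrine markers summed to 62.5 to 87.0 RPKM in heterozygous, 84.6 to 97.6 in null G4 and 76.1 to 130.4 in the libraries labelled reactivated. The 6 epithelial markers summed to 1495 to 1941, 2522 to 3125 and 2567 to 2829 RPKM in the same order. In null G4, 5 of the 6 lay wholly above heterozygous crypts, where 74.7% of all genes tested did, and 0 of the 6 passed. The 8 immune markers summed to 2.85 to 5.33, 3.60 to 4.17 and 1.62 to 4.00 RPKM, and within that list 3 genes of myeloid cells lay wholly above heterozygous crypts in null G4 while 1 gene lay wholly below. The 3 were Itgam (0.458 and 0.451 against 0.134 and 0.218 RPKM), Itgax (0.373 and 0.298 against 0.133 and 0.211) and Lyz2 (0.693 and 0.784 against 0.171 and 0.286), and the other was Cd3e, a T cell gene (0.353 and 0.409 against 0.476 and 1.30). The 6 stromal markers summed to 1.73 to 3.03 RPKM in heterozygous, 3.41 to 3.73 in null G4 and 1.504 to 3.83 in the libraries labelled reactivated. In null G4, 4 of the 6 lay wholly above heterozygous crypts and 1 wholly below, Pecam1 (0.0726 and 0.0812 against 0.139 and 0.256 RPKM). Over all genes tested, 74.7% lay wholly above heterozygous crypts in null G4, and the immune and stromal counts did not exceed that share. Csf1r (0.128 and 0.0468 in null G4 against 0.0979 and 0.111 RPKM) and Cd68 (0.869 and 0.617 against 0.652 and 0.541), also genes of myeloid cells, overlapped. Only 1 marker of each of these 2 lists was high enough to be tested, and neither passed.

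Because Reg1 is an abundant product of the exocrine pancreas, 11 listed acinar genes were read in each library. They summed to 43.7 to 47.2 RPKM in unsorted heterozygous crypts, 39.4 to 48.0 in null G4 and 42.0 to 45.1 in the libraries labelled reactivated, and Cela1 made up most of each sum. At low levels, 9 of the 11 lay wholly above heterozygous crypts in null G4, as did 74.7% of all genes tested. Clps lay wholly below, at 2.06 and 2.15 RPKM in null G4 against 9.64 and 12.1 in heterozygous crypts. Of the 3 acinar genes tested in null G4 against heterozygous crypts, 0 passed as higher and 1, Clps, as lower. Ctrb1, a chymotrypsinogen, stood at 0.0129 and 0 RPKM in heterozygous libraries, 1.02 and 0.618 in the null G4 pair, and 1.08 and 0 in the pair labelled reactivated. Pnlip, the pancreatic lipase, stood at 0 in both heterozygous libraries, 0.207 and 0.202 in the null G4 pair, and 0.390 and 0 in the pair labelled reactivated. In sorted cells Pnlip, Ctrb1 and Cela2a were listed at 0 in all 6 libraries, the one with 191.6 RPKM of Reg1 included. Another 4 acinar genes were not listed for sorted cells. Clps, however, was highest where Reg1 was highest. It stood at 5.29 RPKM in null G3 sorted replicate 1, against 0.641 to 2.89 in the other sorted libraries. Among unsorted libraries it was highest in heterozygous replicate 2, at 12.1 RPKM. Small intestinal enterocyte markers were also highest in these 2 libraries. They summed to 6741 RPKM in null G3 sorted replicate 1. In heterozygous unsorted replicate 2 they summed to 308.7, against 77.9 to 119.5 in the other 5 unsorted libraries. The 8 Paneth cell markers summed to 390.5 and 106.3 RPKM in the same 2 libraries and to 18.9 to 53.3 in the other 10. The 6 colonocyte markers were also highest in heterozygous unsorted replicate 2, at 3160 RPKM against 851.0 to 1402 in the other 5 unsorted libraries. In null G3 sorted replicate 1 they summed to 226.7 RPKM, inside the range of the other sorted libraries (122.2 to 571.0).

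**Figure D5:**
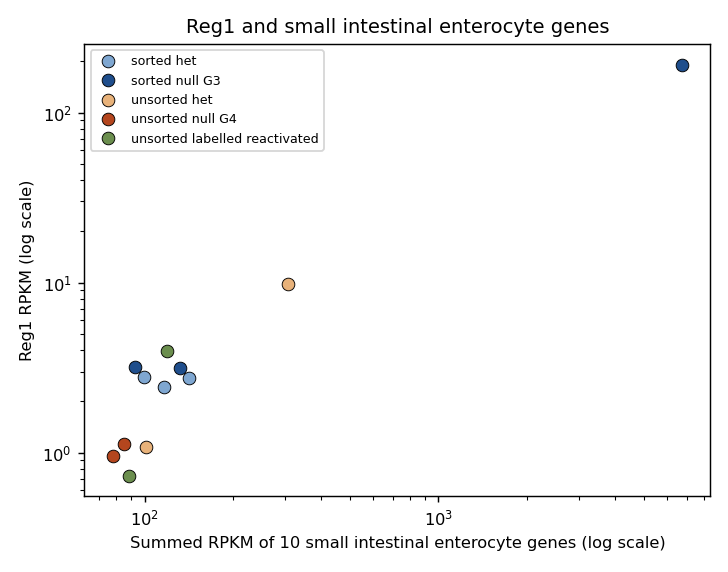
Reg1 against the summed RPKM of 10 small intestinal enterocyte markers in the 12 libraries, both on log axes; each point is 1 library. Null G3 sorted replicate 1 (Reg1 191.6, marker sum 6741 RPKM) and unsorted heterozygous replicate 2 (9.84 and 308.7 RPKM) are highest in both.

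The genes whose profile over the 6 unsorted libraries was most like that of a member were found by the root mean square difference of their centred log2(RPKM + 1) values, as a description. For Reg3b, whose own values spread by 2.64 about their mean, the nearest was Reg3g at 0.67, followed by 4 genes of antigen presentation by MHC class II: H2-Aa (0.79), Cd74 (0.80), H2-Ab1 (0.81) and H2-Eb1 (0.85). H2-Aa stood at 1.94 and 3.59 RPKM in heterozygous crypts, 122.4 and 149.7 in null G4, and 137.8 and 126.4 in the libraries labelled reactivated. Unlike Reg3b, H2-Aa was thus as high in the libraries labelled reactivated as in null G4.

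For Reg1 the nearest were Hbb-bs, a haemoglobin chain, at 0.27, Alpi, the intestinal alkaline phosphatase, at 0.35, Mttp, which loads lipid onto lipoproteins, at 0.38, Lgals2 at 0.39 and Cyp2c55 at 0.43. Alpi and Mttp belong to the enterocyte list, and both were also high in null G3 sorted replicate 1, at 172.5 and 110.7 RPKM, whereas Hbb-bs read 0.00470 RPKM there. For Reg4, with an own spread of 0.61, they were C1qa (0.16), Ces1d (0.17), Matn2 (0.23), Marcksl1-ps4 (0.23) and Vsig2 (0.25). C1qa, a complement gene of macrophages, was at most 2.18 RPKM, so its likeness to Reg4 was one of profile and not of level.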

How the data were processed

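Large intestinal RNA was extracted with the Qiagen RNeasy Mini kit and made into TruSeq libraries, per the labels' protocols. STAR 2.3.0e and mm10 are listed, without a role, per the submitters' processing notes. Which annotation, counter, strand setting and gene lengths were used is not given in the sources used here. RPKM, the only unit here, was computed by the authors, who deposited values for 28793 genes in 12 libraries, and no counts were used.

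Tests used log2(RPKM + 1) in limma 3.58.1 (R 4.3.3), with a two-sided moderated test, a mean-variance trend and Benjamini-Hochberg adjustment over all genes tested, at a threshold of 0.05. A gene entered a fit if the number of its libraries reaching 1 RPKM was no smaller than the smallest group fitted. The 6 sorted libraries were fitted apart, the 6 unsorted ones together, and all 12 for the difference of null effects. A library was called male above 1 RPKM of Ddx3y. Fold changes on this scale understate changes of low genes. The fit was tested on simulated data.

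Read depth was inferred from low RPKM values: 81.7% to 83.7% were whole multiples of 1 read within 0.05 reads, up to 5 reads, in unsorted libraries. Sorted depth is unknown, and RPKM gives no counting interval. Gene positions are from GENCODE M21 and promoters from RefSeq GRCm38.p6, in which all 7 Reg genes matched. Python 3.11.15 was used for the rest.

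The members and lists were chosen with earlier results of these data known. A gene of the signalling list is not reported here and was left out of its counts. Named were the Reg genes, the up to 4 genes of each list with the smallest p in null G4 against heterozygous crypts, a few preset genes (such as Lcn2, Saa1 and Il22ra1) where a result turned on them, and the 5 genes nearest each profile, passing over predicted genes. Cela1, Ctrb1, Pnlip, Cela2a, Itgam, Itgax, Lyz2, Csf1r, Cd68, Cd3e, Pecam1, Lgr5, Il6, Ddx3y and Tert fell outside this rule and were chosen after their values were seen. Alternatives were other pseudocounts, filters and scalings, removal of mitochondrially encoded genes, terms for replicate number and sex, fits on the compared groups alone, and leaving out each library.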

Additional observations from a re-analysis of the deposited data

Results flagged for a closer look

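The difference of Reg3b between null and heterozygous libraries was larger in the unsorted than in the sorted set by 5.95 on the log2 scale (SE 1.04, limma adjusted p = 0.0471), and it was singled out because the difference itself passed the test. Reg3b was higher in both null G4 libraries than in both heterozygous unsorted ones, and the sorted groups overlapped.

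The log2 ratio of Reg3b to Reg3g was higher in null than in heterozygous unsorted crypts and lower in null than in heterozygous sorted cells, and these differences were 2.06 apart. Both null G4 libraries lay above all heterozygous unsorted ones, and all 3 null G3 libraries lay below all sorted heterozygous ones. This difference was not tested.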

How the results depend on the processing

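All values here are log2 differences or counts of genes passing by limma. In null G4 against heterozygous crypts, Reg3b (6.05) and Reg3g (4.55) passed under 14 of 16 alternatives each. They missed the threshold with no filter on low values (6.05 and 4.55) and with the sex term (4.75 and 4.11). Reg4 passed at the RPKM 5 filter, with the replicate block and in the 4-library fit (-1.15 each), under quantile normalization (-1.60) and under median scaling (-1.58). The 636 genes passing became 21 with no filter, 2188 at RPKM 5, 237 under quantile normalization, 240 under median scaling, 253 with mitochondrially encoded genes removed, 1317 with the replicate block, 5804 in the 4-library fit and 69 with the sex term.

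In the libraries labelled reactivated against heterozygous crypts, Reg3b and Reg3g missed the threshold with no filter (4.49 and 3.44), under quantile normalization (4.202 and 3.19), under median scaling (4.25 and 3.23) and with the sex term (3.84 and 3.22). The 146 genes passing became 22 with no filter, 88 and 96 under the same 2 scalings and 264 with the replicate block. Against null G4, 3 genes passing became 0 with no filter or quantile normalization, 9 with the replicate block, 8 in the 4-library fit and 6 with the sex term.

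In sorted cells 0 genes passed under any of 15 alternatives. The sign of Reg3b turned under quantile normalization (-0.014) and the sex term (-0.16), and that of Reg4 under quantile normalization (0.032), median scaling (0.23) and removal of mitochondrially encoded genes (0.14). For the difference of null effects Reg3b missed the threshold in 16 of 21 alternatives, with values of 6.00 and 6.01 at pseudocounts 0.1 and 0.01, 5.95 with no filter, 5.80 under quantile normalization, 4.77 under median scaling, 5.10 with mitochondrially encoded genes removed, 5.95 with the replicate block and 5.79 with the sex term. Its 36 genes passing became 11 at either pseudocount, 70 with no filter, 18 under quantile normalization, 4 under median scaling, 6 with mitochondrially encoded genes removed, 18 with the replicate block and 5 with the sex term. The cause of these changes was not tested.

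Leaving out 1 library gave ranges of 5.13 to 6.96 for Reg3b, 3.56 to 5.54 for Reg3g, -1.37 to -0.93 for Reg4 and -2.41 to -0.031 for Reg1 in null G4 against heterozygous crypts, with 181 to 5742 genes passing. Against heterozygous, the libraries labelled reactivated gave 3.58 to 5.41, 2.45 to 4.43, -1.55 to -0.75 and -1.89 to 0.49 in the same order, with 124 to 2344 genes. Against null G4 they gave -2.20 to -0.90, -1.33 to -0.89, -0.40 to 0.40 and -0.24 to 1.28, with 4 to 185 genes. Sorted cells gave -0.34 to 0.78, 0.43 to 1.56, -1.30 to 0.58 and 0.19 to 2.96, with 0 genes. The difference of null effects gave 5.03 to 6.87, 2.68 to 4.66, -1.73 to 0.15 and -4.44 to -1.41, with 8 to 3537 genes. The log2 ratio of Reg3b to Reg3g gave -0.90 to -0.71 in sorted cells, 1.04 to 1.49 in null G4 and 0.41 to 1.26 in the libraries labelled reactivated against heterozygous, and -0.86 to -0.0041 between those 2. This leave-one-out of the ratio was chosen after seeing the data.

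Libraries share replicate numbers across groups, and the labels do not say whether same-numbered libraries were paired. Deviations of same-numbered libraries correlated at 0.053, -0.030 and -0.19 in sorted cells, where differently numbered ones gave -0.11 to 0.21. For the 3 pairs of unsorted groups the values were 0.22, -0.069 and -0.12. With 2 libraries in a group the deviations are mirror images, so the unsorted values cannot decide whether libraries were paired. With the replicate block Reg4 passed in null G4 (-1.15) and Reg3b lost its call in the difference of null effects (5.95), and no other Reg call changed. Depth limits Reg3a, Reg2 and Reg3d, which stayed under the filter.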
